A study of Mus musculus with 62 samples.

Results

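The C2C12 cultures of the study were one experiment of 8 libraries out of 62 in the series, and they were chosen as all libraries of the table on C2C12 cells at day 7 of myogenic differentiation. C2C12 is an established mouse myoblast line whose cells leave the cell cycle and fuse into multinucleated myotubes when serum is lowered. The CON group held 4 libraries of vector control cells and the OE group 4 libraries of cells that overexpressed ChREBP, all collected at day 7 in differentiation medium with horse serum. Both were stable, puromycin-selected lines made with a viral vector, so that 1 control line was compared with 1 overexpressing line, and the effect of the transgene cannot be told apart from other differences between these lines. The study's methods call the libraries of a group independent biological replicates, and the labels do not say whether they came from separate cultures. Since each group is 1 line, the p-values below measure the spread between libraries of a line, not between lines. Levels are FPKM, fragments scaled to transcript length and to the mapped fragments of the library. Of 17896 gene symbols, 11971 had a mean of at least 0.5 FPKM over the 8 libraries and were tested, and 5925 were under that level.

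ChREBP, encoded by Mlxipl, is a basic helix-loop-helix leucine zipper transcription factor that responds to sugar phosphates. With its partner Mlx it binds carbohydrate response elements, pairs of E boxes related to CACGTG, and in liver and fat it drives genes of glycolysis, fructose use and lipid synthesis. Its paralog MondoA, encoded by Mlxip, uses the same partner and is the better known member of the family in muscle, where Txnip and Arrdc4 are its usual readouts. Myogenic differentiation runs in order through Myod1 and Myf5, which commit the cell, Myog, which starts terminal differentiation, and then fusion and sarcomere genes, with embryonic and slow isoforms made ahead of the adult fast ones.

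The libraries separated by group. The first principal component of all tested genes held 59.7% of the variance, with the CON libraries between -12.64 and -10.4 and the OE libraries between 10.34 and 12.24. On the second component (10.5%), CON 1 and CON 2 lay at 6.58 and 5.47 and CON 3 and CON 4 at -6.86 and -6.38, while OE libraries lay between -2.29 and 2.75. The root mean square log2 difference was 0.125 to 0.154 between CON libraries, 0.13 to 0.138 between OE libraries and 0.23 to 0.258 between the groups, and no pair was identical. The table held no read totals. From the smallest steps of low values in short genes with a single transcript model, the depth was estimated at 11300000 to 12800000 counted fragments per library, a value that rests on annotated lengths.

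The cultures carried the defining markers of myotubes. Of 11 myotube markers, 9 rose and 1 fell in OE, with a summed level of 1656 to 1718 FPKM in CON and 2232 to 2323 FPKM in OE. Myoblast markers were also present, at a summed 159 to 170.5 FPKM in CON and 169 to 174 FPKM in OE (2 of 7 higher, 0 lower). The labels call the cells myoblasts, and markers of both stages were present. Of other cell types, the endothelial markers Pecam1, Cdh5, Kdr and Emcn, the leukocyte marker Ptprc and the adipocyte marker Adipoq were at or near 0, and Tek and Fabp4 averaged under 0.5 FPKM. Not all such markers were absent. The adipocyte markers summed to 17.1 to 18.8 FPKM in CON and 14.9 to 16 FPKM in OE, with the 1 tested lower. Osteoblast markers summed to 10.5 to 12.3 FPKM in CON and 12.6 to 14 FPKM in OE, with the 1 tested higher. The 1 macrophage marker tested was not called. Fibroblast markers, which C2C12 cells also express, summed to 2957 to 3073 FPKM in CON and 2673 to 2858 FPKM in OE, with 4 of 5 tested lower and Thy1 under 0.5 FPKM. In such bulk libraries a change in the share of cells of a type and a change in RNA per cell cannot be told apart.

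Mlxipl was almost undetected in control cultures and present in every overexpressing one. Its level (gene ID 58805) was 0, 0.02, 0 and 0 FPKM in the CON libraries and 12.8, 13.6, 13.4 and 13.8 FPKM in the OE libraries. It was thus listed at 0 in 3 of 4 CON libraries, and the groups did not overlap. Reads of the transgene and of the endogenous gene are summed here, and the log2 fold change of 3.84 ± 0.05 (SE) (adjusted p = 8.0e-13) depends on the 1 FPKM added before the log. In the series' other overexpression experiment, gastrocnemius of young adult male C57BL6/J mice given AAV-CON or AAV-MLXIPL (n = 5 per group), Mlxipl stood at 11.3 ± 0.749 and 83.5 ± 19.1 FPKM. The 2 tables were normalized separately, so these levels stand side by side without a test.

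In the Mondo and Max network, the transcription factors that share Mlx or Max as a partner, 7 of the 11 tested members other than Mlxipl fell slightly. Of 12 tested members, 2 were higher (Mlxipl itself and the Max dimerizer Mxd3), 7 were lower and 3 did not pass the test. Over all tested genes, 16.3% were called higher and 14.1% lower at an adjusted p under 0.05. These shares are the background for the counts of every list below, and a count near them does not set a list apart. MondoA (Mlxip) measured 8.35, 8.1, 8.44 and 8.82 FPKM in the CON libraries and 7.42, 7.63, 7.08 and 7.63 FPKM in the OE libraries, a fall of 0.16 on the log2 scale (adjusted p = 0.015), and without overlap between the groups. That call is lost when the closest CON libraries are averaged in pairs, as is that of Mxd3. The obligate partner Mlx did not pass the test, at 19.6 ± 1.11 FPKM in CON and 20.5 ± 0.561 FPKM in OE. Max fell from 33.8 to 30.3 FPKM (log2 fold change -0.15), the Max dimerizer Mnt from 12.8 to 11.1 FPKM (-0.19), Myc from 18.8 to 16.7 FPKM (-0.16) and Mycl from 12.5 to 10.4 FPKM (-0.24). The median of the list was -0.14, against 0.00 over all genes.

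Genes known elsewhere as outputs of ChREBP or MondoA moved in both directions. Among the 25 tested, 7 were higher, 6 lower and 12 not called, and the median log2 fold change was 0.00. A further 12 members, among them the liver-type ones, were under 0.5 FPKM. The members moved in opposite directions even within the arrestin family. Txnip, which limits glucose uptake, rose modestly from 103, 106, 103 and 106 FPKM in CON to 114, 126, 121 and 123 FPKM in OE (log2 fold change 0.21 ± 0.03 (SE), adjusted p = 7.1e-04). Its relative Arrdc4, an arrestin with the same role, fell to a mean 2.88-fold lower than in CON. Arrdc4 measured 2.03, 1.77, 2.19 and 2.09 FPKM in the CON libraries and 0.66, 0.68, 0.65 and 0.82 FPKM in the OE libraries (log2 fold change -0.83 ± 0.07 (SE), adjusted p = 6.2e-06). The groups did not overlap for either gene, and Arrdc3 did not pass the test (16.8 ± 0.64 FPKM in CON and 16.3 ± 0.351 FPKM in OE).

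Fgf21, Rgs16 and Klf10 had the largest rises of the list. Fgf21, a secreted hormone of nutrient stress, measured 1.73, 1.82, 2.1 and 1.37 FPKM in the CON libraries and 3.6, 4.63, 3.47 and 4.88 FPKM in the OE libraries (log2 fold change 0.90 ± 0.11 (SE), adjusted p = 8.4e-05). Rgs16, which shortens G protein signals, rose from 2.61, 2.79, 2.39 and 2.82 FPKM to 5.18, 5.08, 5.58 and 4.93 FPKM (0.76 ± 0.06 (SE), adjusted p = 3.3e-06). Klf10, a zinc finger repressor, rose from 17 to 22 FPKM (0.36). Among the metabolic enzymes, malic enzyme Me1 rose from 35.2 to 39.4 FPKM (0.16), a call lost without OE 4, and others fell. Fasn, the fatty acid synthase, fell from 35.9, 37, 36 and 35 FPKM to 30.5, 29.8, 32 and 31.8 FPKM (-0.21 ± 0.03 (SE), adjusted p = 6.8e-04). Scd1, the stearoyl-CoA desaturase, fell from 205 to 180.0 FPKM (-0.18), Pgd of the pentose phosphate pathway from 101 to 87.1 FPKM (-0.21) and Tkfc of fructose use from 11.7 to 10 FPKM (-0.21). Acaca (15.2 in CON and 15.6 FPKM in OE), Scd2 (285 in CON and 270.3 FPKM in OE) and the fructokinase Khk (6.87 in CON and 5.79 FPKM in OE, adjusted p = 0.051) were not called.

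**Figure D1:**
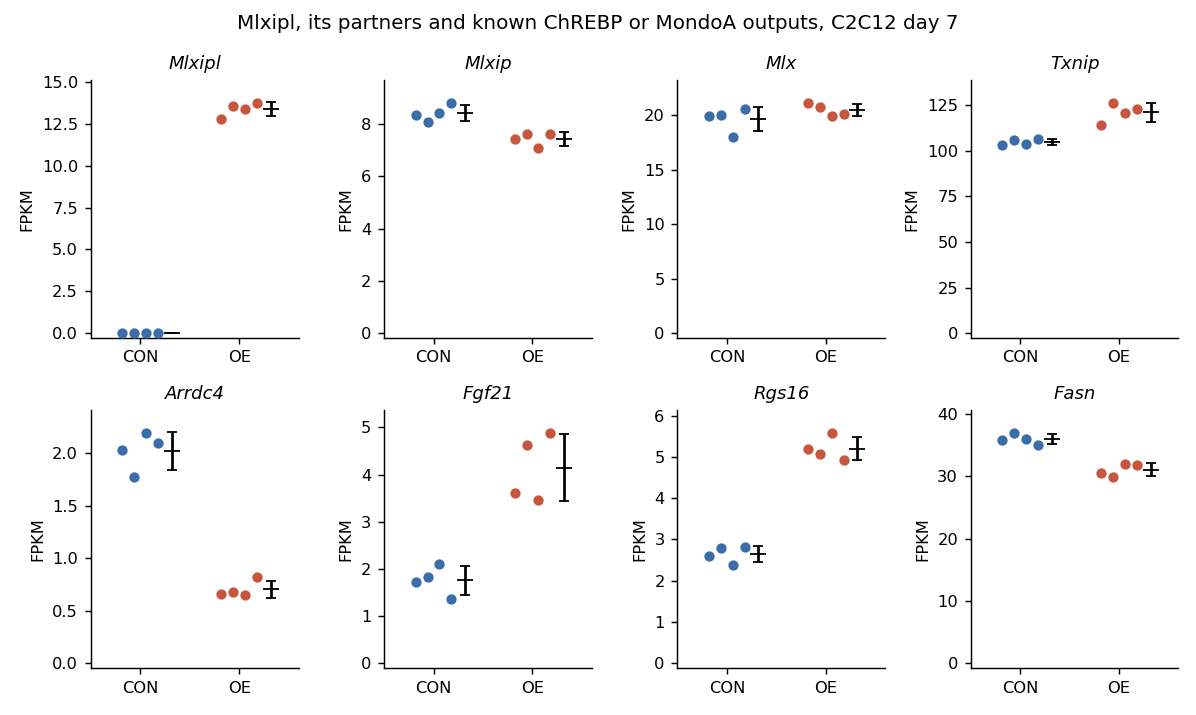
Level in FPKM (vertical axes, linear, from just under 0) of Mlxipl, its family member Mlxip, the partner Mlx and 5 known outputs in the 4 CON (blue) and 4 OE (red) libraries; points are libraries, and bars give the mean ± SD. Mlxipl was at or near 0 in CON and at 12.8 to 13.8 in OE, Arrdc4 and Fasn were lower in every OE library, and Txnip, Fgf21 and Rgs16 were higher in every OE library.

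Promoter sequence is shown for the pair of arrestins that moved in opposite directions and for Fgf21, since the E box CACGTG is the core of the element that ChREBP recognizes. Each is the 250 bases before the RefSeq transcription start on GRCm38.p6, 5′ to 3′ on the strand of the gene, in lower case with motifs in capitals, and the genes were picked after their values were seen. CACGTG was searched on both strands, and 6.02% of all 32851 such windows held it. The Txnip window (chr3:96557707-96557956, plus strand) held none, the Arrdc4 window (chr7:68749239-68749488, minus strand) held one that began 193 bases before the start, and the Fgf21 window (chr7:45615491-45615740, minus strand) held one that began 50 bases before it, together with a TGATGNAA sequence on the opposite strand that is described with the stress genes.
Txnip: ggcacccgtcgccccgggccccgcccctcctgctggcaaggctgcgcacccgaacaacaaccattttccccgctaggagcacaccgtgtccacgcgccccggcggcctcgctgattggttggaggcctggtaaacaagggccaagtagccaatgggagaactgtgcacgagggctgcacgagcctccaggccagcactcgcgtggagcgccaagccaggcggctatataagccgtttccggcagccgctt
Arrdc4: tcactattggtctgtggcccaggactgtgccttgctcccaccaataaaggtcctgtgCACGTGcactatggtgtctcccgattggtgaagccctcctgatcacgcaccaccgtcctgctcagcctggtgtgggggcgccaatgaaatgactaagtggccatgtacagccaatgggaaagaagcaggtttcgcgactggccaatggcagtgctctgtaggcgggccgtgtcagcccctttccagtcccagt
Fgf21: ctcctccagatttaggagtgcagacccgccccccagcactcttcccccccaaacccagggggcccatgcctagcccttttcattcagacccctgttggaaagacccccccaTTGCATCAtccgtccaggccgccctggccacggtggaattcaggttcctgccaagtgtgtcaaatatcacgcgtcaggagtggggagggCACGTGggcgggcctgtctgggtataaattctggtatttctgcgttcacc
Of the 2 genes with the exact letters CACGTG in this window, Arrdc4 fell and Fgf21 rose, and Txnip, without those exact letters, rose. Only the exact letters CACGTG were searched, so a window without a match can still hold related sequences. The Txnip window, for example, holds the letters cacgag more than once within a short stretch. The search therefore does not show that Txnip lacks a pair of related E boxes. A match describes the letters only, and a window without one says nothing about elements farther away.

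Across all genes the differences were many and mostly small. At an adjusted p under 0.05 by limma, 1957 genes were higher and 1690 lower in OE, 30.5% of those tested, and 90.7% of them changed by less than 0.5 on the log2 scale, with a median absolute change of 0.21. By at least 1 on that scale, 28 rose (0.234%) and 17 fell (0.142%), on log2(FPKM + 1), which understates the change of low genes. The study applied a criterion of a log2 fold change of at least 1 with an unadjusted p under 0.05 to a DESeq2 test. Applied here to limma on log2(FPKM + 1), a different method whose calls cannot be equated with those, 28 were higher (0.234%) and 18 lower (0.15%), and with 0.1 FPKM added in place of 1 these became 84 and 44. Without overlap between the groups, 1990 genes were higher (16.6%) and 1760 lower (14.7%), 31.3% in all.

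**Figure D2:**
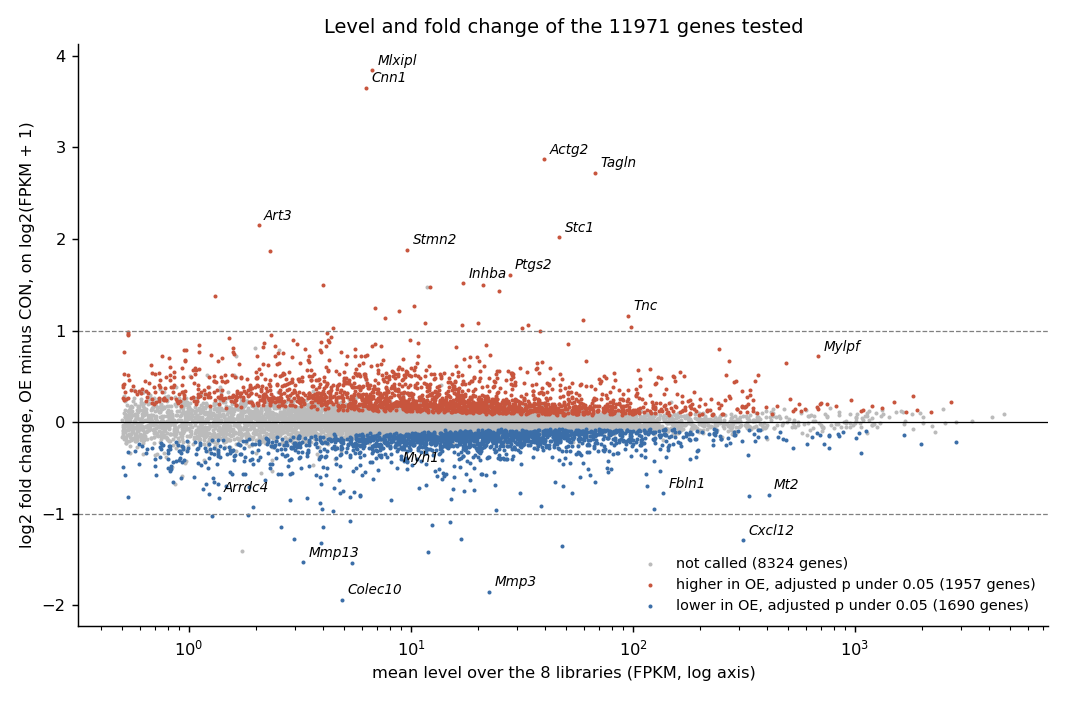
Mean level over the 8 libraries (horizontal, FPKM, log axis) against the log2 fold change, OE minus CON (vertical), of each of the 11971 genes tested; red points are the 1957 called higher, blue points the 1690 called lower, and dashed lines mark a log2 change of 1 in either direction. Most called genes lie close to 0, and Mlxipl, Cnn1, Actg2 and Tagln stand apart at the top.

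On log2(FPKM + 1), the largest rises after Mlxipl were those of Cnn1, Actg2 and Tagln, genes of the contractile apparatus of smooth muscle. With 0.1 FPKM added in place of 1, the low-level genes Art3 and Mcam ranked above Actg2 and Tagln. Cnn1, the actin-binding protein calponin, was nearly undetected in CON and reached the level of Mlxipl in OE. It measured 0.07, 0.07, 0.05 and 0.1 FPKM in the CON libraries and 12.9, 12.3, 12.8 and 12.1 FPKM in the OE libraries (log2 fold change 3.65 ± 0.05 (SE), adjusted p = 9.7e-13). Actg2, the enteric smooth-muscle actin, rose from 9.16, 8.89, 8.58 and 8.52 FPKM to 66.5, 69.2, 72.8 and 73.9 FPKM (log2 fold change 2.87 ± 0.04 (SE), adjusted p = 9.7e-13). Tagln, the actin-bundling protein transgelin, rose from 17.4, 17.2, 16.6 and 16.9 FPKM to 118, 117, 118 and 121 FPKM (2.72 ± 0.03 (SE), adjusted p = 7.7e-14). All 3 were separated from the controls in every library by more than the whole spread within either group.

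The wider smooth-muscle contractile list moved the same way. Of 15 tested members, 10 were higher, none lower and 5 not called, with a median of 0.32 (1 lower without OE 2). Acta2, the vascular smooth-muscle actin that myoblasts also make, rose from 393, 381, 373.8 and 372 FPKM to 601, 592, 606 and 582 FPKM (0.65 ± 0.03 (SE), adjusted p = 7.0e-08). Lmod1, a leiomodin, rose from 0.315 to 1.03 FPKM (0.63) and Myl9, a regulatory light chain, from 10.2 to 15.2 FPKM (0.53). The actins share long stretches of sequence, and the sources do not say how reads that match several of them were assigned, so their separate levels are uncertain. The defining smooth-muscle myosin Myh11 was at a mean of 0.02 FPKM in CON and 0.02 FPKM in OE. The cofactor Myocd, which drives this program in smooth muscle, was listed at 0 in 7 of 8 libraries and at 0.01 FPKM in OE 3, and Srf, its DNA-binding partner, was not called (17.6 ± 0.622 FPKM in CON and 18.1 ± 0.603 FPKM in OE). Mcam, an adhesion molecule of vascular smooth muscle and endothelium, was outside the list and rose from 0.49, 0.38, 0.5 and 0.34 FPKM to 3.8, 4.1, 4.5 and 4.48 FPKM (1.87 ± 0.07 (SE), adjusted p = 1.4e-08). In the AAV-injected gastrocnemius, Tagln stood at 11.8 ± 1.36 FPKM with AAV-CON and 13 ± 3.13 FPKM with AAV-MLXIPL, and Cnn1 at 0.845 ± 0.334 and 0.908 ± 0.506 FPKM.

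Promoter windows are given for Cnn1 as the leading gene of this group, and for Actc1 and Myl9 as contractile genes in which the CArG box, the element of serum response factor, was found. They were read in the same way as above and chosen after the values were seen. The CArG box (CC, a run of A or T, and GG) was present in 1.47% of all windows. It was found once in Actc1 (chr2:114052876-114053125, minus strand), from 47 bases before the start, and once in Myl9 (chr2:156775214-156775463, plus strand), from 161 bases before it, and not in Cnn1 (chr9:22099003-22099252, plus strand).
Cnn1: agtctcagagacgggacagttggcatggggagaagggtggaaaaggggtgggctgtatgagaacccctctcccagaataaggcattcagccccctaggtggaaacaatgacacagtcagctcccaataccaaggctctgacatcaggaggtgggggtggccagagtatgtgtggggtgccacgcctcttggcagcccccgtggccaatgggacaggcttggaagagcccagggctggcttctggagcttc
Actc1: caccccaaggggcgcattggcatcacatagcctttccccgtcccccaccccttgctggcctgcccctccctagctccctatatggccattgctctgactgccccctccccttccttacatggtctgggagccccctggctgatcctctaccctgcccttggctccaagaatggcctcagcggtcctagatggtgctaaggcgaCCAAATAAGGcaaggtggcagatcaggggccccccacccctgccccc
Myl9: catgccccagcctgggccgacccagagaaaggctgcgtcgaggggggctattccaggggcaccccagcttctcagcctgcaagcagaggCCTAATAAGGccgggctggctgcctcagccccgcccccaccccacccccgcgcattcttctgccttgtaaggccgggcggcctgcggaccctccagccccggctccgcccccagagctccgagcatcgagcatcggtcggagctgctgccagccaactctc
The windows of the smooth-muscle members Acta2 and Lmod1 held no exact match to this pattern either. Among the windows read for this list (Cnn1, Acta2, Lmod1 and Myl9), 1 of 4 held an exact match. Near matches were not counted, and the Acta2 window held ccctatatgg and ccttgtttgg, with a C or a G within the run. Actc1 belongs to the embryonic sarcomere list and is described there. The promoters of Tagln and Actg2 were not analysed here.

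**Figure D3:**
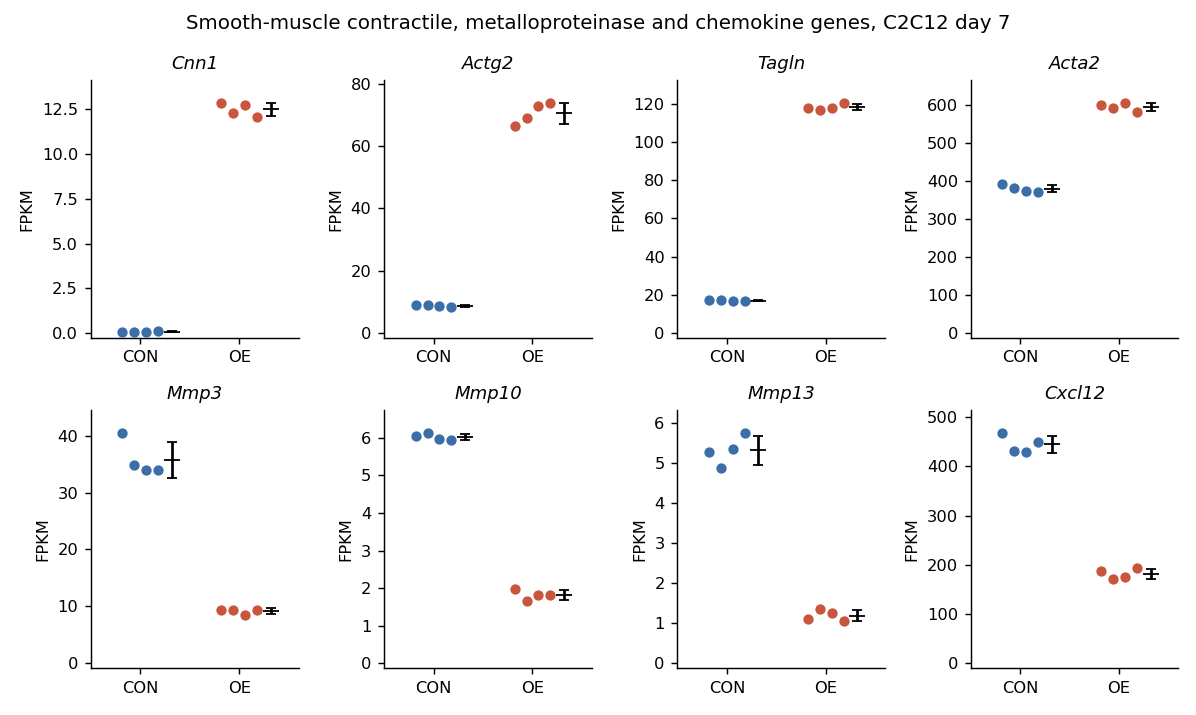
Level in FPKM (vertical axes, linear, from just under 0) in the 4 CON (blue) and 4 OE (red) libraries of Cnn1, Actg2, Tagln and Acta2, which rose, and of Mmp3, Mmp10, Mmp13 and Cxcl12, which fell; points are libraries, and bars give the mean ± SD. In none of the 8 genes do the groups overlap.

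Sarcomere genes rose broadly, with the myosin heavy chains Myh8, Myh1 and Myh4 among the exceptions. Embryonic sarcomere genes were higher in 7 and lower in 2 of 10 tested (median 0.47), slow-twitch genes in 8 and 2 of 14 (median 0.26) and fast-twitch genes in 13 and 2 of 17 (median 0.29). Myh3, the embryonic myosin heavy chain, rose from 24.9, 24.1, 25.7 and 25.9 FPKM to 51.3, 52.3, 50.1 and 50.2 FPKM (log2 fold change 0.99 ± 0.03 (SE), adjusted p = 4.7e-09). Actc1, the cardiac actin of embryonic muscle, rose from 19.8, 20.1, 20.2 and 22.1 FPKM to 42.7, 44.7, 40.4 and 43.7 FPKM (1.03 ± 0.04 (SE), adjusted p = 3.4e-08). Both were about 2 times higher in OE, while the perinatal myosin Myh8 was low and fell, from 0.845 to 0.52 FPKM (-0.28). Myl4, the embryonic light chain, rose from 141 to 199.6 FPKM (0.50).

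Among slow isoforms the troponins moved together. Tnnc1 measured 242 ± 15.4 FPKM in CON and 328 ± 13.8 FPKM in OE (log2 fold change 0.44), Tnni1 107 ± 3.62 FPKM in CON and 152 ± 4.7 FPKM in OE (0.50) and Tnnt1 61.1 ± 4.17 FPKM in CON and 87 ± 3.18 FPKM in OE (0.50), and all 3 were higher in every OE library. The slow myosin Myh7 was a scarce transcript, at 0.83, 0.75, 0.7 and 0.81 FPKM in the CON libraries and 1.16, 1.21, 1.1 and 1.05 FPKM in the OE libraries, and rose by 0.27 on the log2 scale (adjusted p = 0.0078). The ventricular light chain Myl2 was not called, at 3.63, 3.32, 2.4 and 2.94 FPKM in the CON libraries and 2.43, 2.13, 2.15 and 3.9 FPKM in the OE libraries, and Myl3 was listed at 0 in all libraries but CON 3 and OE 3, at 0.09 FPKM each. The calcium pump Atp2a2 fell from 140.1 to 125 FPKM (-0.17).

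The fast troponins and light chains named here rose, while the fast heavy chains Myh1 and Myh4 fell. Mylpf, the fast regulatory light chain and the most abundant of these, measured 519, 492, 538 and 516 FPKM in the CON libraries and 838, 896, 834 and 840.3 FPKM in the OE libraries (log2 fold change 0.72 ± 0.04 (SE), adjusted p = 1.7e-07). Myl1 rose from 331.6, 307, 272 and 296 FPKM to 438, 441, 412 and 433 FPKM (0.52). Tnnt3 rose from 127 to 179 FPKM (0.49), Tnni2 from 92.9 to 122 FPKM (0.39) and Tnnc2 from 85.9 to 101 FPKM (0.24). Each of these was higher in every OE library. The calcium buffer Pvalb, low in culture, rose from 2.35 to 4.58 FPKM (0.73). Myh1, the fast IIX heavy chain, went the other way, from 10.5, 10.2, 10.4 and 9.93 FPKM to 7.31, 6.66, 6.77 and 7.18 FPKM (-0.50 ± 0.04 (SE), adjusted p = 7.7e-06). Myh4, the IIB heavy chain, fell from 4.85, 4.43, 4.82 and 4.81 FPKM to 3.89, 3.3, 3.35 and 3.9 FPKM (-0.32 ± 0.06 (SE), adjusted p = 0.0023). By qRT-PCR on other days of differentiation, the study reported Myh4 as higher in the overexpressing cells, the opposite direction. The reason for this difference was not tested. Myh2, the IIA chain, was under the level of testing (0.32, 0.34, 0.37 and 0.21 FPKM in the CON libraries and 0.23, 0.15, 0.18 and 0.27 FPKM in the OE libraries). The myosin heavy chain genes are close paralogs, and reads shared among them may have been split in ways the sources do not state. In the separately normalized AAV-CON gastrocnemius, Myh4 stood at 14343 ± 797 FPKM and Myh3 at 0.226 ± 0.133 FPKM, an order opposite to that in the cultures.

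**Figure D4:**
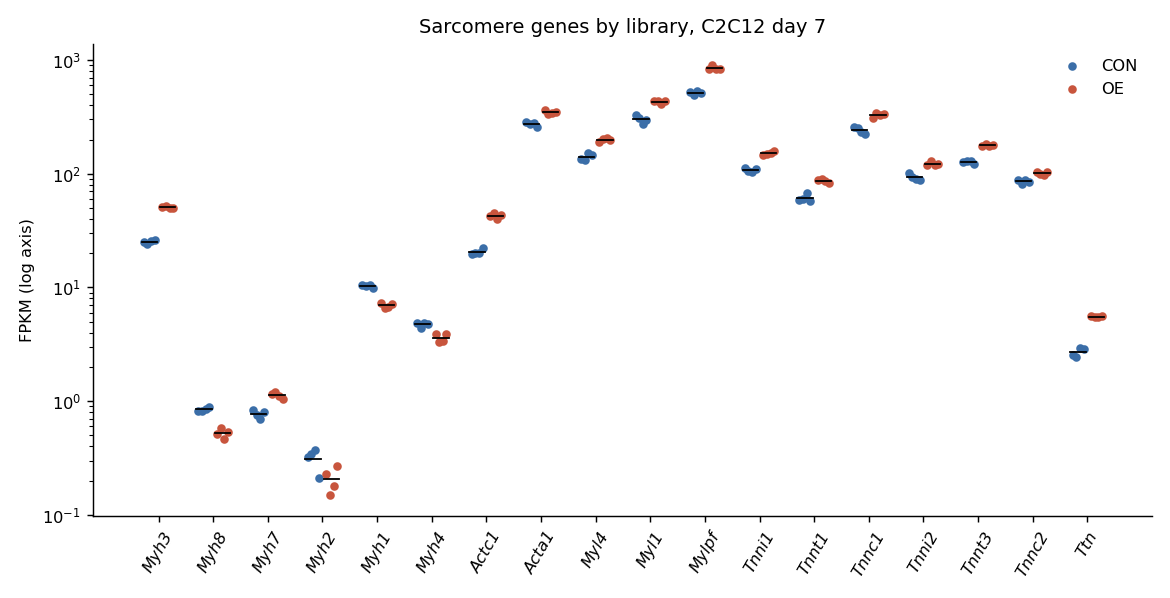
Level in FPKM (vertical, log axis) of 18 sarcomere genes in the 4 CON (blue) and 4 OE (red) libraries; black lines are means. Embryonic Myh3, Actc1 and Myl4, the troponins and Mylpf were higher in every OE library, whereas Myh8, Myh1 and Myh4 were lower in every OE library.

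Most genes of the scaffold that holds the sarcomere rose. In the list of Z-disc and thick filament scaffold genes, 27 of 40 tested were higher, 2 lower and 11 not called (median 0.35). Ttn, the giant spring protein titin, measured 2.56, 2.43, 2.95 and 2.85 FPKM in the CON libraries and 5.57, 5.52, 5.53 and 5.57 FPKM in the OE libraries (log2 fold change 0.83 ± 0.05 (SE), adjusted p = 1.4e-06). Nrap, which seeds new myofibrils, rose from 2.48 to 5.37 FPKM (0.87), Pdlim3, a Z-disc LIM protein, from 35.8 to 65.6 FPKM (0.86) and Klhl41, which stabilizes thin filaments, from 15.2 to 28.2 FPKM (0.85). Neb, the thin filament ruler nebulin, rose from 4.92 to 7.5 FPKM (0.52). The intermediate filament gene Des, among the most abundant of the list, did not pass the test (614 ± 9.62 FPKM in CON and 648 ± 6.72 FPKM in OE, adjusted p = 0.052). Ankrd1, a stretch-responsive titin partner, rose from 300.2 to 408 FPKM (0.44).

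Of calcium release and uptake genes, 12 of 25 were higher and 2 lower (median 0.17). Tmem38a, a counter-ion channel of the sarcoplasmic reticulum, rose from 16.7 to 26 FPKM (0.61), the junctional protein Trdn from 0.642 to 1.44 FPKM (0.57) and the calcium-binding protein Casq2 from 45.3 to 61.4 FPKM (0.43). The release channel Ryr1 rose from 5.07 to 6.75 FPKM (0.35), whereas its voltage sensor Cacna1s was not called (2.11 in CON and 2.48 FPKM in OE, adjusted p = 0.063). Neuromuscular junction genes were higher in 6 and lower in 2 of 15. The kinase Musk, which clusters acetylcholine receptors, rose from 10.9 to 16 FPKM (0.52), its adaptor Dok7 from 1.12 to 2.01 FPKM (0.51) and Chrng, the embryonic receptor subunit, from 23.4 to 33.9 FPKM (0.51). Nrg1, a growth factor of the junction, fell from 8.32 to 6.2 FPKM (-0.37). Dystrophin complex genes were higher in 5 and lower in 3 of 19 (26.3% and 15.8%, beside 16.3% and 14.1% of all tested genes).

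Upstream of the sarcomere, the late factor Myog rose, while of the early ones Myf5 rose and Myod1 was not called. Among myogenic regulators, 10 of 23 tested were higher, 3 lower and 10 not called (median 0.12). Myog, the factor of terminal differentiation, measured 45.6, 45.4, 49.1 and 48.6 FPKM in the CON libraries and 77, 74.1, 71.8 and 79.1 FPKM in the OE libraries (log2 fold change 0.67 ± 0.04 (SE), adjusted p = 4.4e-07). Every OE library was above every CON library. Mef2c, its partner at muscle promoters, rose from 4.97 to 7.41 FPKM (0.49) and Tead4 from 3.29 to 4.83 FPKM (0.44). Myod1 was not called, at 40.2, 38.9, 42.2 and 37.7 FPKM in the CON libraries and 40, 38, 35.6 and 38.7 FPKM in the OE libraries (adjusted p = 0.31). Myf5, its sister factor in committed myoblasts, rose from 33.1 to 38.6 FPKM (0.21), and Nfix, a factor of the fetal program, fell from 55.8 to 46.3 FPKM (-0.26).

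Reserve and satellite cell genes went both ways, with 6 of 22 higher, 5 lower and 11 not called (median -0.04, 3 lower without OE 4). Pax7, the defining factor of satellite cells, was not called at 5.34, 5.39, 5.43 and 4.83 FPKM in the CON libraries and 5.54, 6.17, 5.69 and 5.58 FPKM in the OE libraries (log2 fold change 0.11, adjusted p = 0.12). The Notch effector Heyl fell from 23, 21.6, 23.4 and 22.9 FPKM to 14.7, 14.1, 14.1 and 14.4 FPKM (-0.63 ± 0.03 (SE), adjusted p = 3.2e-07). Spry1, a brake on growth factor signals in quiescent cells, rose from 1.1 to 2.26 FPKM (0.64).

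Both genes of the fusion machinery rose. Mymk, the membrane protein myomaker, measured 40.2 ± 2.11 FPKM in CON and 53.4 ± 0.899 FPKM in OE (log2 fold change 0.40, adjusted p = 1.4e-05). Mymx, the micropeptide myomixer, rose from 32.7, 26.7, 29.7 and 30.7 FPKM to 46, 49.4, 48.7 and 46.9 FPKM (0.66 ± 0.05 (SE), adjusted p = 5.6e-06). In the whole fusion and membrane list 8 of 25 were higher and 5 lower. Trim72, of membrane repair, rose (12.5 in CON and 19.5 FPKM in OE, 0.61), as did the tetraspanin Cd9 (247 in CON and 338 FPKM in OE, 0.45), and Elmo1, a regulator of Rac, fell from 7.37 to 4.6 FPKM (-0.58).

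Cell-cycle genes were also higher in OE, alongside the differentiation genes. Of 48 tested, 35 were higher, 1 lower and 12 not called, with a median of 0.36. Mki67, the proliferation marker, measured 12.5, 13.9, 12.9 and 12.8 FPKM in the CON libraries and 16.9, 18.2, 17.6 and 17.8 FPKM in the OE libraries (log2 fold change 0.41 ± 0.04 (SE), adjusted p = 2.2e-05). The mitotic genes led, with Hmmr from 9.34 to 14.8 FPKM (0.62), the spindle midzone protein Prc1 from 24.5 to 37.5 FPKM (0.59), the mitotic cyclin Ccnb1 from 16.4 to 24.6 FPKM (0.56) and the spindle motor Kif11 from 6.78 to 10.2 FPKM (0.52). The G1 cyclin Ccnd1 was not called (21.5 in CON and 19.9 FPKM in OE), and its kinase Cdk4 fell by 0.11 on the log2 scale, a call that is lost when the closest CON libraries are averaged. The cell-cycle inhibitor Cdkn1a rose as well, from 174, 173, 168 and 164 FPKM to 199, 194, 190.0 and 187 FPKM (0.18).

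In the list of growth factor, myostatin and Wnt genes, Inhba, Ccn2 and Tgfb2 had the largest rises. Inhba, the activin A subunit, measured 8.1, 8.11, 8.68 and 8.76 FPKM in the CON libraries and 25.3, 27.3, 24.9 and 26.1 FPKM in the OE libraries (log2 fold change 1.52 ± 0.04 (SE), adjusted p = 1.3e-09). Ccn2, the matricellular protein CTGF, rose from 13.2, 13.3, 10.9 and 14.8 FPKM to 35.4, 35.7, 36.3 and 40 FPKM (1.44 ± 0.07 (SE), adjusted p = 1.8e-07). Tgfb2 rose from 2.69 to 6.05 FPKM (0.93). The full list was split, with 15 of 54 higher, 13 lower and 26 not called (median -0.01). Its largest falls were the Wnt modulator Sfrp2 (1.76 in CON and 0.792 FPKM in OE, -0.61) and Igfbp3, a carrier of insulin-like growth factors (2.88 in CON and 1.76 FPKM in OE, -0.50). Grem1, a secreted BMP antagonist named after its values were seen, rose from 179 to 311 FPKM (0.80).

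Matrix and fibroblast genes divided into a rising and a falling group. Of 58 tested, 15 were higher, 24 lower and 19 not called (median -0.04). Fibroblast markers were lower by the sums given above, and their part in these counts was not tested. Postn, the matricellular protein periostin, rose from 5.54, 6.06, 5.05 and 5.93 FPKM to 15, 15.7, 14.9 and 14.4 FPKM (log2 fold change 1.27 ± 0.05 (SE), adjusted p = 3.4e-08). Tnc, tenascin C, rose from 58 to 131 FPKM (1.16), and thrombospondin Thbs1 from 209 to 332.5 FPKM (0.66). Cilp, a cartilage matrix protein, was outside the list and rose from 1.37, 1.72, 1.57 and 1.86 FPKM to 6.4, 6.38, 7.44 and 5.48 FPKM (1.49 ± 0.08 (SE), adjusted p = 3.6e-07). The proteoglycan lumican (Lum) fell from 7.73 to 3.99 FPKM (-0.80) and fibulin Fbln1 from 173 to 101 FPKM (-0.78). The interstitial collagen Col1a1 fell from 161, 160.2, 152 and 151 FPKM to 111, 102, 109 and 108 FPKM (-0.53), while the more abundant Col3a1 was not called (2249 ± 52.4 FPKM in CON and 2186 ± 84.2 FPKM in OE).

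The largest falls of the matrix list, Mmp3 and Mmp13, and Mmp10 outside it are metalloproteinases of one gene cluster on chromosome 9. Mmp3, stromelysin 1, measured 40.5, 34.8, 33.9 and 33.9 FPKM in the CON libraries and 9.43, 9.4, 8.43 and 9.43 FPKM in the OE libraries (log2 fold change -1.85 ± 0.06 (SE), adjusted p = 4.7e-09). Mmp13, a collagenase, fell from 5.28, 4.88, 5.35 and 5.75 FPKM to 1.11, 1.35, 1.25 and 1.06 FPKM (-1.53 ± 0.06 (SE), adjusted p = 3.5e-08). Mmp10, stromelysin 2, fell from 6.04, 6.13, 5.97 and 5.93 FPKM to 1.99, 1.65, 1.81 and 1.82 FPKM (-1.32 ± 0.05 (SE), adjusted p = 2.4e-08). In every OE library all 3 were below every CON library, whereas Mmp2, a gelatinase outside this gene cluster, was abundant and not called (785 ± 7.09 FPKM in CON and 768 ± 13.3 FPKM in OE). The promoter windows of the 3 genes are shown because they share a motif and a direction, and they were chosen after their values were seen. TGANTCA, the palindrome bound by AP-1 factors, was present in 6.75% of all windows and once in each of these. The windows are chr9:7445572-7445821, plus strand for Mmp3, chr9:7502092-7502341, plus strand for Mmp10 and chr9:7272264-7272513, plus strand for Mmp13.
Mmp3: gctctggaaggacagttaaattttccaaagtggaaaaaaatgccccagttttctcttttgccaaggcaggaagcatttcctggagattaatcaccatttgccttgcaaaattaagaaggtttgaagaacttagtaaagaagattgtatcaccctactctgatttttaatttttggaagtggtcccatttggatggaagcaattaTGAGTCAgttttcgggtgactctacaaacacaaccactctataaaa
Mmp10: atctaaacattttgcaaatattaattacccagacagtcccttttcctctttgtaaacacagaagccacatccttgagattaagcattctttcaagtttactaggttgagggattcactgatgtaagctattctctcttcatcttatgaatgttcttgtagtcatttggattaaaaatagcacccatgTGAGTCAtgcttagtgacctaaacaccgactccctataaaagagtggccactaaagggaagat
Mmp13: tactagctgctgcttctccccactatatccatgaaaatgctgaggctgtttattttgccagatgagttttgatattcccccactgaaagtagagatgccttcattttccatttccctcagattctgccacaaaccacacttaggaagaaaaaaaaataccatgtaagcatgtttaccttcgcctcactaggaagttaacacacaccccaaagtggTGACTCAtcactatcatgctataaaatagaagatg
The motif began 46, 63 and 35 bases before the start of Mmp3, Mmp10 and Mmp13.

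The other genes with large rises had varied roles. Stc1, the glycoprotein hormone stanniocalcin, rose from 16.9, 15.9, 20 and 18 FPKM to 78.1, 81.8, 85.5 and 56.9 FPKM (log2 fold change 2.02 ± 0.11 (SE), adjusted p = 3.1e-07). OE 4 was below the other OE libraries but above every control. Art3, an ADP-ribosyltransferase family member of muscle, rose from 0.15, 0.24, 0.06 and 0.05 FPKM to 4.2, 3.63, 3.74 and 4.39 FPKM (2.15 ± 0.08 (SE), adjusted p = 1.4e-08). Stmn2, a tubulin-binding protein best known in neurons, rose from 3.66, 4.46, 3.28 and 2.82 FPKM to 14.9, 15.3, 15.9 and 16.6 FPKM (1.88 ± 0.09 (SE), adjusted p = 1.0e-07). Art3 and Stmn2 were thus low in every control library. Ptgs2, the inducible cyclooxygenase, rose from 11.7, 13, 13.4 and 15 FPKM to 39.3, 44, 42.7 and 43.4 FPKM (1.61 ± 0.06 (SE), adjusted p = 2.4e-08). The orphan nuclear receptor Nr4a1 rose from 9.5, 11.5, 10.4 and 10.6 FPKM to 31.2, 34.5, 31.3 and 29 FPKM (1.5 ± 0.06 (SE), adjusted p = 2.5e-08).

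On the falling side the chemokine Cxcl12 was the most abundant. It measured 468, 431, 429 and 449 FPKM in the CON libraries and 186, 171, 175 and 194 FPKM in the OE libraries (log2 fold change -1.29 ± 0.04 (SE), adjusted p = 8.6e-09). Colec10, a soluble collectin, fell from 8.96, 7.9, 8.72 and 7.74 FPKM to 1.57, 1.4, 1.4 and 1.36 FPKM (-1.94 ± 0.06 (SE), adjusted p = 3.8e-09). Cyp2f2, a cytochrome P450, fell from 76.5, 66.1, 68.4 and 64.7 FPKM to 29.1, 25.2, 25 and 26.5 FPKM (-1.35 ± 0.06 (SE), adjusted p = 4.1e-08). Smaller transcripts among the largest falls were the apolipoprotein Apoc1 (8.41 ± 1.22 FPKM in CON and 2.44 ± 1.24 FPKM in OE, -1.53), the channel-like Tmc3 (4.64 ± 0.252 FPKM in CON and 1.33 ± 0.0574 FPKM in OE, -1.28) and the adhesion protein Amigo2 (3.94 ± 0.535 FPKM in CON and 1.23 ± 0.0866 FPKM in OE, -1.14). Prl2c2, a proliferin, fell from 24.1 to 9.47 FPKM (-1.27), and the uncharacterized LOC115490151 from 17.8 to 6.11 FPKM (-1.41). Prl2c2 has near-identical copies, so its level is uncertain. The histone gene H3c14, also of a multigene family, was listed at 0 in OE 4 against 4.67, 6.46, 4.93 and 6.3 FPKM in CON, and its call is lost when any CON library is left out.

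Genes of the amino acid response such as Chac1, Trib3 and Asns rose, while the chaperones Hspa5 and Calr were not called. In the integrated stress and unfolded protein list 15 of 29 tested were higher, 1 lower and 13 not called (median 0.13). Chac1, which degrades glutathione, measured 6.95, 7.05, 7.36 and 6.9 FPKM in the CON libraries and 16.7, 15.2, 15.4 and 16.9 FPKM in the OE libraries (log2 fold change 1.08 ± 0.04 (SE), adjusted p = 3.1e-08). Trib3, a pseudokinase induced by Atf4, rose from 2.17 to 4.52 FPKM (0.80), the stress hormone Gdf15 from 3.37 to 6.34 FPKM (0.77) and asparagine synthetase Asns from 27, 31.9, 27.5 and 29.6 FPKM to 40.8, 45.2, 43.6 and 46.1 FPKM (0.58). Atf4, the factor known to drive these genes, rose from 206 to 245 FPKM (0.25). Ddit3, the proapoptotic factor CHOP, fell from 34.7 to 27.5 FPKM (-0.33). Hspa5, a chaperone of the endoplasmic reticulum, measured 346 ± 6.45 FPKM in CON and 347.96 ± 2.29 FPKM in OE, and Calr, a calcium-binding one, 730.2 ± 18.2 FPKM in CON and 703 ± 13.6 FPKM in OE.

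Promoter windows of Chac1 and Asns are shown beside that of Fgf21 above because these 3 rising genes held TGATGNAA, the shape of the element bound by Atf4 with C/EBP factors. The motif was searched on both strands and was found in 3.45% of all windows. It lay in chr2:119350992-119351241, plus strand for Chac1 and in chr6:7693210-7693459, minus strand for Asns, beginning 193 bases before the start of Chac1, 23 before that of Asns and 139 before that of Fgf21, and it was read on the reverse strand in Chac1 and Fgf21. The window of Trib3, which also rose, held none.
Chac1: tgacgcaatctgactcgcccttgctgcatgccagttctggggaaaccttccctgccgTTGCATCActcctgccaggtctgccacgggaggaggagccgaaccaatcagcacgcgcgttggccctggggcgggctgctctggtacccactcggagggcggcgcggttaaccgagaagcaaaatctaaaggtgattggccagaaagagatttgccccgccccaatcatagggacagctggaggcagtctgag
Asns: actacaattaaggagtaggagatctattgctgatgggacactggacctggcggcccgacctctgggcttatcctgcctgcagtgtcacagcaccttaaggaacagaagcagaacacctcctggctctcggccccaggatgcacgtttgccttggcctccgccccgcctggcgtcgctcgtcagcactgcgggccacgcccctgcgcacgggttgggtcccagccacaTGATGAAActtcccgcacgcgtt

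Metabolic lists were split between the directions, beside 16.3% higher and 14.1% lower over all tested genes. Glycolysis and lactate genes were higher in 5, lower in 9 and not called in 12 of 26 (median -0.05). The muscle isoforms of enolase and phosphoglycerate mutase rose and the ubiquitous ones fell. Eno3, the muscle enolase, rose from 124, 125, 122 and 120.2 FPKM to 154, 153, 152 and 149 FPKM (log2 fold change 0.30, adjusted p = 6.7e-06), and Eno1, the ubiquitous one, fell from 1233, 1257, 1109.8 and 1138 FPKM to 941, 929, 937 and 932 FPKM (-0.34, adjusted p = 1.4e-04). Pgam2, the muscle phosphoglycerate mutase, rose from 6.06 to 8.09 FPKM (0.36), and Pgam1 fell from 476 to 443 FPKM (-0.11), a call lost with the closest CON libraries averaged. The lactate carrier Slc16a1 fell from 88.6 to 65.9 FPKM (-0.42), and Gapdh (3353 ± 28.4 FPKM in CON and 3381 ± 40.8 FPKM in OE) and Pkm (1207 ± 11.1 FPKM in CON and 1182 ± 16 FPKM in OE) were not called. Ckm, the muscle creatine kinase, rose from 11.3 to 15 FPKM (0.39), in a list of glycogen, creatine and adenylate genes with 4 of 18 higher (2 without OE 2 or OE 4) and 2 lower.

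Most lipid genes were not called, and the same held for all tested genes, of which 16.3% were called higher and 14.1% lower. In lipogenesis and triglyceride synthesis 3 of 24 were higher, 5 lower and 16 not called (median -0.05, 1 higher without OE 4), led by Mid1ip1, an activator of acetyl-CoA carboxylase (27.4 in CON and 37.3 FPKM in OE, 0.43), and Srebf1, the lipogenic transcription factor (21.5 in CON and 18.1 FPKM in OE, -0.24). Sterol synthesis had 4 of 22 higher and 6 lower, and 8 higher without CON 3. Fatty acid uptake and oxidation had 8 of 41 higher (5 with the closest CON libraries averaged) and 11 lower (median -0.06). The uptake proteins Cd36 (1.44 in CON and 2.57 FPKM in OE, 0.55) and Fabp3 (4.96 in CON and 7.41 FPKM in OE, 0.50) rose, whereas Angptl4, a secreted lipase inhibitor, fell from 53.5, 57.1, 53.3 and 53.7 FPKM to 34.8, 34.1, 34.7 and 33.4 FPKM (-0.65) and Cpt1a, which admits fatty acids to mitochondria, from 63.5 to 50.2 FPKM (-0.33). Of hexose transport and fructose genes 1 of 11 was higher and 2 lower, with Gfpt2 of the hexosamine pathway falling from 1.8 to 0.782 FPKM (-0.66).

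Most mitochondrial genes were not called, and neither were most of all tested genes. Over all tested genes 16.3% were called higher and 14.1% lower, against 24.1% and 1.27% of respiratory chain and ATP synthase genes. Respiratory chain and ATP synthase genes were higher in 19, lower in 1 and not called in 59 of 79 (median 0.05), and without OE 2 the higher ones were 12. Cox6a2, the muscle isoform of a cytochrome oxidase subunit, led with 6.92 in CON and 10 FPKM in OE (0.48), and Sdha of succinate dehydrogenase was the one that fell (83.4 in CON and 75.9 FPKM in OE, -0.13). In the TCA cycle and shuttles 4 of 32 were higher and 1 lower. Genes of HIF and oxygen were lower in 10 and higher in 3 of 20 (median -0.12), among them the angiogenic factor Vegfa (107 in CON and 93.2 FPKM in OE, -0.19) and Pdk1, which limits pyruvate oxidation (39.4 in CON and 32.1 FPKM in OE, -0.29).

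Among the remaining lists, interferon response genes were lower in 11 and higher in 3 of 31 (median -0.11), although their summed level, set by a few abundant members, was 984 to 1015 FPKM in CON and 1046 to 1126 FPKM in OE. Zbp1, a nucleic acid sensor, fell from 7.42, 7.45, 5.54 and 7.86 FPKM to 3.2, 3.35, 3.05 and 4.71 FPKM (-0.82) and the guanylate-binding protein Gbp2 from 9.57 to 6.76 FPKM (-0.44), while B2m, the light chain of class I molecules, rose from 468 to 556 FPKM (0.25) and H2-K1, a heavy chain, from 117 to 135 FPKM (0.21). Of oxidative stress genes 3 of 27 were higher and 5 lower (3 lower without CON 1). These were 11.1% and 18.5%, beside 16.3% and 14.1% of all tested genes. The metallothioneins, which bind zinc and copper, led the falls, with Mt1 from 481, 469, 346 and 404 FPKM to 254, 249.6, 238 and 224 FPKM (-0.80 ± 0.09 (SE), adjusted p = 5.8e-05) and Mt2 from 519 to 298 FPKM (-0.79). Both were also higher in CON 1 and CON 2 than in CON 3 and CON 4. Atrophy and FoxO targets were higher in 5 and lower in 7 of 26, with the glucocorticoid target Klf15 falling from 1.12 to 0.495 FPKM (-0.50). Circadian clock genes were higher in 5 (3 in 5 of the 8 fits that leave out a library) and lower in 1 of 19, the one being Npas2 (4.5 in CON and 3.17 FPKM in OE, -0.40). Adipocyte genes were higher in 2 and lower in 2 of 9, osteoblast and chondrocyte genes higher in 3 of 4 (1 without CON 2, OE 2 or OE 3), tendon genes higher in 2 of 4, and the 2 leukocyte genes and 1 endothelial gene tested were not called by limma.

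**Figure D5:**
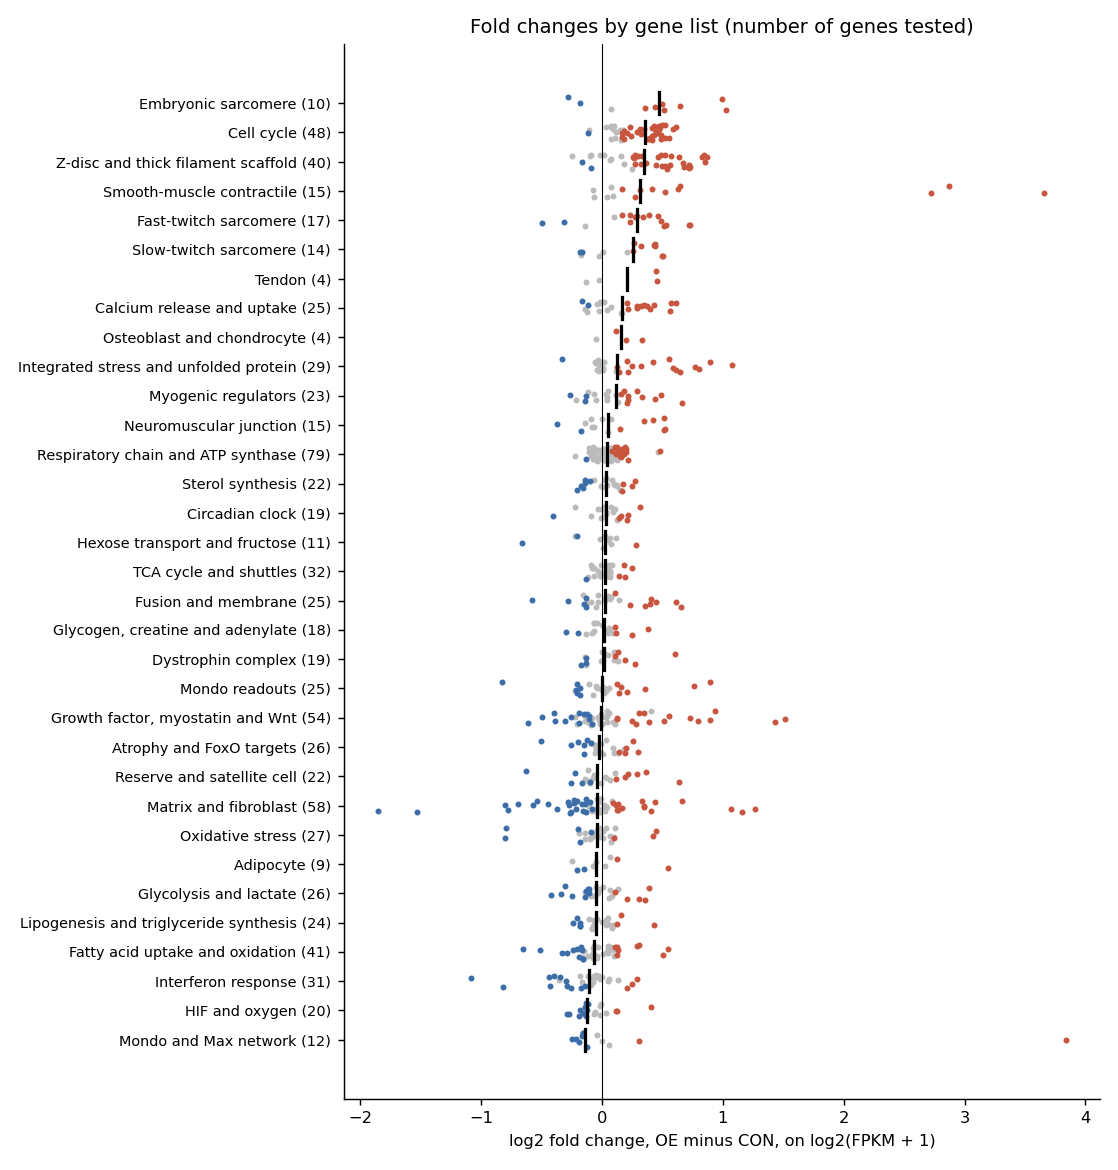
Log2 fold change, OE minus CON, on log2(FPKM + 1) (horizontal) of each tested member of 33 gene lists (rows, number of genes tested in parentheses); red points were called higher, blue lower and grey not called, and black bars are medians. Medians run from -0.14 for the Mondo and Max network to 0.47 for embryonic sarcomere genes, and Mlxipl, Cnn1, Actg2 and Tagln lie above 2.5.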

How the data were processed

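RNA was extracted with TRIzol, made into NEBNext Ultra libraries and sequenced on an Illumina NovaSeq instrument. The authors trimmed reads with fastp (0.18.0) and aligned them with HISAT2 (2.1.0); the submitters' processing notes also name Bowtie2 (2.2.8), StringTie (1.3.1), RSEM and GRCm39, and the counting step for this table is not given in the sources used here. The deposited values were taken as FPKM, a unit the header does not name, and read depth can only be estimated from them. Of 17898 rows, 2 that repeated a symbol at a lower mean were left out. Log2(FPKM + 1) was compared between OE and CON (n = 4 per group) for genes averaging 0.5 FPKM or more over the 8 libraries with limma 3.58.1 (R 4.3.3, moderated with a trend, two-sided, Benjamini-Hochberg over 11971 genes). The fit was tested on simulated data. Values are means ± SD. A call depends on the spread among 4 libraries, and a group overlap is counted over all of them. In the AAV table, columns with the authors' means, fold changes, p-values and FDR were not used. Promoter windows come from RefSeq on GRCm38.p6. Genes named were those the study examined, the 12 largest rises and falls without overlap, and in each list up to 4 called members of largest change in each direction and up to 3 of highest level. Further genes were chosen after their values were seen. The gene lists and the experiment itself were chosen with earlier results of these data known. Alternatives were another pseudocount, filter and scaling, robust variances, a replicate block, leaving out each library and averaged CON pairs. Some genes are not reported here.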

Additional observations from a re-analysis of the deposited data

Results flagged for a closer look

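Single libraries stood apart from the other 3 of their group in 22 of 444 gene and group combinations checked by Dixon's criterion for groups of 4, and chance alone flags about 1 in 20. None of the values below was tested further.

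In CON the separate values were Klf10 at 17.4 FPKM (CON 2, the others 16.8 to 16.9), Pax7 at 4.83 (CON 4, the others 5.34 to 5.43), Myh4 at 4.43 (CON 2, the others 4.81 to 4.85), Il6 at 13.9 (CON 3, the others 17.3 to 17.97), Mmp3 at 40.5 (CON 1, the others 33.9 to 34.8), Angptl4 at 57.1 (CON 2, the others 53.3 to 53.7), Dcaf8l at 6.57 (CON 3, the others 5.72 to 5.82), Sdha at 84.6 (CON 1, the others 82.9 to 83.2) and Dcn at 592 (CON 4, the others 571 to 574). In OE they were Cdh15 at 169 (OE 4, the others 171.0 to 171.3), Myl2 at 3.9 (OE 4, the others 2.13 to 2.43), Mylpf at 896 (OE 2, the others 834 to 840.3), Chrng at 31.8 (OE 3, the others 34.4 to 34.7), Ccn1 at 189 (OE 3, the others 196 to 197), Mmp3 at 8.43 (OE 3, the others 9.4 to 9.43), Ldha at 629 (OE 1, the others 649 to 652), Slc16a1 at 61.7 (OE 3, the others 67.2 to 67.4), Atf4 at 259.6 (OE 2, the others 239 to 241), Gdf15 at 6.97 (OE 4, the others 6.1 to 6.18), H3c14 at 0 (OE 4, the others 3.05 to 3.32), Lss at 10.3 (OE 1, the others 9.78 to 9.86) and Ier2 at 77.1 (OE 3, the others 82.4 to 83.2).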

How the results depend on the processing

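The count of lower genes went from 1690 to 1122 when the closest CON libraries (1 with 2, 3 with 4) were averaged, an alternative chosen after seeing the data, and that of higher genes from 1957 to 1422. With 0.1 FPKM added in place of 1, genes changed by at least 1 on the log2 scale went from 28 and 17 (higher and lower) to 84 and 43 at an adjusted p under 0.05, and from 28 and 18 to 84 and 44 by the study's criterion. Testing genes averaging 5 FPKM or more, the lower counts were 9 by either rule, with fewer genes tested. Leaving out 1 library at a time gave 1601 to 1839 higher and 1359 to 1585 lower genes. The fit with the replicate number as a block gave 1807 higher and 1550 lower. Same-numbered libraries of the groups deviated with correlations of 0.176, -0.013, -0.094 and 0.075, not every library correlated best with its own number, and the numbers were not taken as pairs. Without a filter, with median-ratio rescaling and with robust variance estimates the counts stayed within 1.5 times the reported ones. No gene called in the reported fit was called in the opposite direction in any of the 15 alternatives. Of 201 genes examined singly and called, 193 kept the call in all of them, and Cdk4, Fn1, H3c14, Me1, Mlxip, Mxd3, Pgam1 and Psmb8 lost it in at least 1. The Hspa5 log2 fold change, OE minus CON, not called, went from 0.01 to between -0.00265 (without CON replicate 1) and 0.0171 (without CON replicate 4). The cause was not tested. Counts of 1 to 3 members of a gene list often moved by 1 member. Values under about 1 FPKM can rest on few fragments, above all in short genes.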

Other observations

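Genes of the immediate-early response, which serum and stress induce within minutes, were higher in OE beyond Nr4a1 and Ptgs2. In a list written after the values were seen, 16 of 22 were called higher, 1 lower and 5 not called, so the count is a description without a test. The related receptor Nr4a2 measured 10.2, 10.5, 10.6 and 11.2 FPKM in the CON libraries and 22.9, 24.2, 24.5 and 21.5 FPKM in the OE libraries (log2 fold change 1.06). Fos rose from 6.58 to 10.1 FPKM (0.54), Egr1 from 70 to 96.5 FPKM (0.46), Atf3 from 4.53 to 7.64 FPKM (0.64) and Ier2 from 58.6 to 81.3 FPKM (0.47). The phosphatase Dusp1, which ends such signals, rose from 49.8 to 66.9 FPKM (0.42).

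Secreted chemokines, complement and acute-phase proteins were lower in OE beyond Cxcl12. In a list also written after the values were seen, 16 of 20 were called lower, 2 higher and 2 not called, and the summed level was 1972 to 2081 FPKM in CON and 1339 to 1399 FPKM in OE. Ccl2, which recruits monocytes, measured 20.1, 19.1, 21.8 and 21.9 FPKM in the CON libraries and 9.54, 10.4, 9.88 and 7.36 FPKM in the OE libraries (-1.09). Ccl7 fell from 67.2 to 38.9 FPKM (-0.77), Cxcl1 from 69.6 to 45.8 FPKM (-0.60), the acute-phase protein Saa3 from 163 to 84.5 FPKM (-0.95), complement C3 from 82.8 to 52.2 FPKM (-0.66), factor B (Cfb) from 24.8 to 16.4 FPKM (-0.57) and haptoglobin (Hp) from 6.23 to 2.71 FPKM (-0.97). Il6 moved the other way, from 17.3, 17.8, 13.9 and 18 FPKM to 28, 32.2, 30.3 and 23.6 FPKM (0.73).

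Gap43 and Cck, best known in nerve cells, rose as well and were noticed after their values were seen. Gap43, a growth cone protein, rose from 37.3 to 81.9 FPKM (1.12), and the peptide hormone gene Cck from 67.1, 63.6, 65.4 and 58.1 FPKM to 144, 127, 139.6 and 117 FPKM (1.04).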
